A study of Mus musculus with 6 samples.

Results

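The genes described here are YAP1 and TAZ (Yap1, Wwtr1), a set of their regulators in the Hippo pathway (Lats1, Lats2, Amotl1, Amotl2), the TEAD cofactor Vgll3, and the target genes most often read as a measure of YAP/TAZ activity (Ctgf, Cyr61, Ankrd1). They are the rows of the count table whose gene symbol is one of these 10 names, 10 of 21240 genes, and all 10 were among the 11080 genes that passed the filter on low counts and were tested. They were measured by stranded total RNA-seq in NMuMG cells, an immortal epithelial line from the mouse mammary gland, so every library comes from 1 line in culture. Before treatment the cells of all groups went 6 h without serum and insulin. The 3 groups, each of 2 libraries labelled as biological replicates, then received vehicle for 2 h, TGFβ1 at 5 ng/ml for 2 h, or TGFβ1 at 5 ng/ml for 12 h. The vehicle is acid with BSA, given as Tris-HCl in the treatment label and as HCl in the protocol. No vehicle library was taken at 12 h, so in the comparison of 12 h with vehicle the effect of TGFβ1 and that of the longer time without serum cannot be told apart. The same limit holds for 12 h against 2 h, where longer exposure to TGFβ1 goes with longer time without serum. The methods call the replicates independent, and neither they nor the labels say whether these were separate cultures, so the p-values measure the spread between these libraries.

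Totals ranged from 14705886 to 23786993 counts per library, and levels are given as CPM, the counts of a gene relative to the TMM-adjusted total of its library. Of 7 epithelial markers, 4 passed the filter, and Krt18 and Krt8, keratins of simple epithelia, and Cdh1, the epithelial cadherin, made up nearly all of their summed level, which ran from 3299 to 3939 CPM in vehicle, from 4691 to 4784 at 2 h and from 9889 to 9912 at 12 h. The higher sum at 12 h was that of the keratins (log2FC 1.63 for Krt8 and 1.53 for Krt18), while Cdh1 had means of 392 CPM in vehicle and 372 CPM at 12 h (log2FC -0.07, edgeR adjusted p = 0.762). The claudins Cldn3 and Cldn7 had no counts in any vehicle or 12 h library, and Epcam stayed at or below 0.70 CPM. The summed level of 6 fibroblast markers, of which Pdgfra alone was tested, lay between 2.23 and 5.06 CPM in all libraries, that of 5 leukocyte markers between 0.76 and 1.03 CPM, and that of 4 endothelial markers between 0.18 and 1.95 CPM, the highest values being those of Cdh5 at 12 h. The part of these marker levels in the results was not tested. In bulk RNA, a change in the level per cell and a change in the share of cells that express a gene cannot be told apart.

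In the Hippo pathway the kinases MST1 and MST2 activate LATS1 and LATS2, which phosphorylate the coactivators YAP and TAZ and keep them out of the nucleus. Angiomotin proteins bind YAP and TAZ at junctions and actin filaments, and they also promote LATS activity. When the kinases are off, YAP and TAZ enter the nucleus and bind TEAD factors at enhancers and promoters, where they meet AP-1 and, in cells exposed to TGFβ, the SMAD proteins. Since YAP and TAZ are controlled mostly by phosphorylation and localisation, mRNA levels report on the supply of pathway parts and on the output of target genes, not on the state of the proteins.

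After TGFβ1 the target genes and Amotl1 had the largest rises among the 10 genes, with log2 fold changes (log2FC) of 2.57 to 6.13 at 12 h, while those of the coactivators and the LATS kinases at 12 h were 0.19 to 0.68. At 2 h, 3 of the 10 genes were higher than in vehicle by edgeR's quasi-likelihood test (adjusted p under 0.05), namely Ctgf, Cyr61 and Amotl1. Among all genes tested 9.91% were higher at 2 h. None of the 10 was lower, against 5.25% of all genes. At 12 h, 9 of the 10 were higher, all but Lats1, against 21.8% of all genes, and 0 were lower, against 21.5%. From 2 h to 12 h, 6 of the 10 rose (Ctgf, Ankrd1, Amotl1, Cyr61, Vgll3 and Amotl2), against 15.2% of all genes, and 0 fell, against 18.9%. Their median log2FC was 0.22 at 2 h and 0.93 at 12 h, while the median over all genes tested was -0.01 and 0.02. With 1 library left out the median of the 10 genes ran from 0.11 (without 2 h replicate 1) to 0.35 (without 2 h replicate 2) at 2 h and from 0.89 to 0.99 at 12 h. The comparisons with vehicle share the same vehicle libraries. Because the 10 genes were picked with earlier results of these data known, the contrast with all genes is a description and not a test.

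How many of the 10 genes passed at 12 h depended on single libraries. Without vehicle replicate 1 or 12 h replicate 1, Yap1, Wwtr1, Vgll3 and Lats2 lost their call. Without 12 h replicate 2, Yap1, Wwtr1, Vgll3 and Amotl2 lost it, and without vehicle replicate 2, Yap1, Wwtr1 and Lats2. Over all genes tested, fewer were also called higher at 12 h without vehicle replicate 1 or either 12 h library. Each of these fits left 1 library in a group. Scaling by total counts, without TMM factors, moved the median of all genes to -0.12 at 2 h and -0.11 at 12 h. With it the calls over all genes went from 1098 higher and 582 lower to 854 higher and 975 lower at 2 h, and from 2414 higher and 2385 lower to 1830 higher and 3047 lower at 12 h. Of the 10 genes, Yap1 and Wwtr1 lost their call at 12 h under that scaling.

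**Figure D1:**
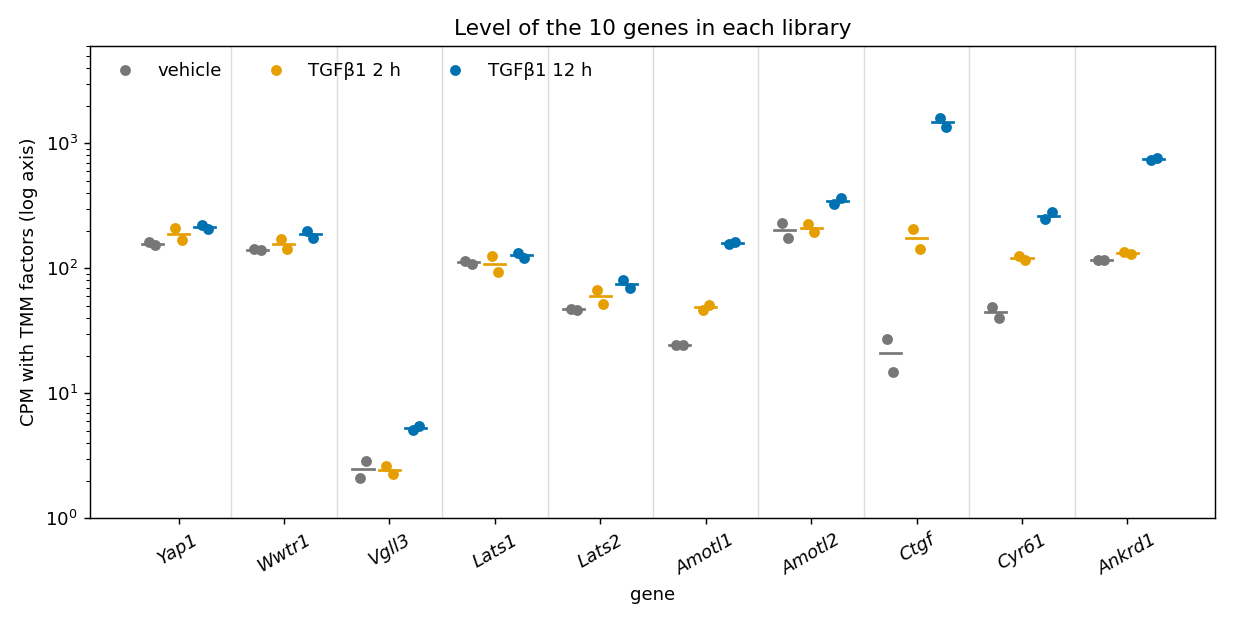
CPM with TMM factors of the 10 genes on a log axis. Points are single libraries and bars are group means. Ctgf, Ankrd1, Cyr61 and Amotl1 at 12 h lie far above vehicle, while Yap1, Wwtr1 and Lats1 shift little in all 6 libraries.

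Promoter sequences from RefSeq (GRCm38.p6) were found for all of the genes but Ctgf. Each window holds 250 bases before and 50 bases after a transcription start site. The core of the TEAD recognition sequence, GGAATG, was searched on both strands, and matches of different motifs were allowed to overlap. It is present in 14.7% of 32851 windows of all genes, and in at least 1 window of 7 of these 9 genes, a count per gene and not per window. The windows of Lats1 and Amotl1 do not hold these letters. Wwtr1 and Lats2 have a pair of windows each. Those of Wwtr1 show the same site in both, and of those of Lats2 only 1 holds the letters. The AP-1 letters TGANTCA are in 7.81% of all windows and in 0 of the 9, and the SMAD letters CAGAC, which occur in 49.6% of all windows, are in 6 of the 9. These matches describe the letters of the windows and do not show binding. The bases before the start site are shown for Cyr61 (chr3:145649986-145650235, minus strand), Ankrd1 (chr19:36119845-36120094, minus strand) and Amotl2 (chr9:102717554-102717803, plus strand), which have the largest differences in CPM between vehicle and 12 h among the genes with a match, with the TEAD letters in capitals (CATTCC where the match is on the other strand):
Cyr61: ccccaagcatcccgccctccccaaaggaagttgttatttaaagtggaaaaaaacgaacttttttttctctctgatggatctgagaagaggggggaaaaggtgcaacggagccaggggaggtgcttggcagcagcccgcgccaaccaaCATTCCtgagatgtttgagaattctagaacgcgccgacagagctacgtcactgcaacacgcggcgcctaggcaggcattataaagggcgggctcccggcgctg
Ankrd1: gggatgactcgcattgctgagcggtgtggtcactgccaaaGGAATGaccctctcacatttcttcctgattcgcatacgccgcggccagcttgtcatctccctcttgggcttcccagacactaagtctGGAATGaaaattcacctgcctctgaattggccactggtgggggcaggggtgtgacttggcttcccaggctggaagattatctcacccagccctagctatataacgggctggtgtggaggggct
Amotl2: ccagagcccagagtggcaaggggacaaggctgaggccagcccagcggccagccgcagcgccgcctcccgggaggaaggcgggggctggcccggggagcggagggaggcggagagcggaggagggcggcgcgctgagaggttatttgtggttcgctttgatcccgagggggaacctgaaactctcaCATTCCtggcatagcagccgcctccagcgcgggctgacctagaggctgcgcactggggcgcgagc

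The match begins 103 bases before the start site in Cyr61 and 65 bases before it in Amotl2. Ankrd1 holds the letters at 210 and at 123 bases before its start site, and the latter match shares a base with the SMAD letters on the other strand. For the other genes the match is shown with 10 bases on each side, for Yap1 (chr9:8004722-8004747), Wwtr1 (chr3:57576031-57576056), Vgll3 (chr16:65815116-65815141) and Lats2 (chr14:57746104-57746129), where the Lats2 match lies just after the start site:
Yap1: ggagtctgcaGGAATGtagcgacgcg
Wwtr1: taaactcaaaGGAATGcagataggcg
Vgll3: cgcctccccaCATTCCggctaccctg
Lats2: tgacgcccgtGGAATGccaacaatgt

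Ctgf (Ccn2) encodes a secreted matricellular protein of the CCN family and is both a direct TEAD target and a known TGFβ response gene. It lies at chr10:24315248-24318489 on the plus strand of NCBIM37, the build also called mm9, and has the Entrez identifier 14219. Its level was 27.0 and 14.7 CPM in vehicle, 207 and 143 CPM at 2 h, and 1579 and 1359.9 CPM at 12 h. Every library at 2 h was above both vehicle libraries, and every library at 12 h was above both at 2 h. The means were 20.9 ± 8.70, 175 ± 44.8 and 1469.6 ± 155 CPM (SD, n = 2 each). Ctgf rose 8.36-fold at 2 h (log2FC 3.06 ± 0.32 SE, edgeR adjusted p = 0.00186) and 70.2-fold at 12 h (log2FC 6.13 ± 0.36 SE, edgeR adjusted p = 6.96e-05), and it rose a further 8.40-fold between the times (log2FC 3.07 ± 0.31 SE, edgeR adjusted p = 0.000882). The widest gap between replicates of any of the 10 genes was in vehicle Ctgf, where replicate 2 was below replicate 1 by a log2 difference of -0.87. The median gap over all genes tested was 0.15 in vehicle. Leaving out any library left Ctgf called in each comparison, with log2FC between 2.69 and 3.57 at 2 h and between 5.76 and 6.64 at 12 h.

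Cyr61 (Ccn1), the CCN relative of Ctgf and an immediate-early gene, lies at chr3:145309935-145312949 on the minus strand (Entrez 16007). It stood at 48.8 and 40.2 CPM in vehicle, 125 and 117 CPM at 2 h, and 247 and 281 CPM at 12 h. The 3 groups did not overlap. Cyr61 rose 2.71-fold at 2 h (log2FC 1.44 ± 0.13 SE, edgeR adjusted p = 0.00126) and 5.93-fold at 12 h (log2FC 2.57 ± 0.14 SE, edgeR adjusted p = 5.47e-05). From 2 h to 12 h it rose 2.19-fold (log2FC 1.13 ± 0.13 SE, edgeR adjusted p = 0.00141). On the log2 scale Cyr61 rose by 1.44 up to 2 h and by 1.13 from 2 h to 12 h, and Ctgf by 3.06 and 3.07. Whether the steps differ in size was not tested.

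Ankrd1, which encodes an ankyrin-repeat protein found at the sarcomere and in the nucleus and is a standard YAP/TAZ target, lies at chr19:36186455-36194334 on the minus strand (Entrez 107765). Its CPM values were 117.3 and 117.0 in vehicle, 134 and 131 at 2 h, and 735 and 759 at 12 h. The replicates were close in every group, and the libraries at 2 h lay just above those of vehicle. The difference at 2 h did not pass the test (log2FC 0.18 ± 0.09 SE, edgeR adjusted p = 0.263). At 12 h Ankrd1 had risen 6.37-fold (log2FC 2.67 ± 0.10 SE, edgeR adjusted p = 3.16e-05), and the rise from 2 h to 12 h was 5.64-fold (log2FC 2.50 ± 0.10 SE, edgeR adjusted p = 8.81e-05). Ctgf and Cyr61 were thus past the test at both times and Ankrd1 at 12 h. A difference between the genes was not tested.

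Amotl1, an angiomotin family scaffold that holds YAP and TAZ at junctions, lies at chr9:14346410-14447973 on the minus strand (Entrez 75723). It was measured at 24.3 and 24.2 CPM in vehicle, 46.6 and 51.1 CPM at 2 h, and 156 and 163 CPM at 12 h. The replicates nearly coincided and the groups did not overlap. Amotl1 rose 2.02-fold at 2 h (log2FC 1.01 ± 0.10 SE, edgeR adjusted p = 0.00171), 6.59-fold at 12 h (log2FC 2.72 ± 0.11 SE, edgeR adjusted p = 3.16e-05), and 3.27-fold from 2 h to 12 h (log2FC 1.71 ± 0.10 SE, edgeR adjusted p = 0.000199). Its change at 12 h was of the size seen for Cyr61 and Ankrd1.

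Amotl2, another angiomotin family scaffold and itself a YAP/TAZ target, lies at chr9:102619002-102635748 on the plus strand (Entrez 56332). Its level was 229 and 173 CPM in vehicle, 227 and 195 CPM at 2 h, and 326 and 363 CPM at 12 h. The vehicle and 2 h libraries overlapped, and both 12 h libraries were above all others. At 2 h the difference from vehicle was within the error (log2FC 0.07 ± 0.16 SE, edgeR adjusted p = 0.804), and its sign changed under scaling by total counts, to -0.04. Amotl2 rose 1.71-fold at 12 h (log2FC 0.78 ± 0.16 SE, edgeR adjusted p = 0.00869) and 1.63-fold from 2 h to 12 h (log2FC 0.71 ± 0.16 SE, edgeR adjusted p = 0.0164). The call against vehicle was lost without 12 h replicate 2 (edgeR adjusted p = 0.0757, the highest over all alternatives, the lowest being 0.000101). The call from 2 h to 12 h was lost without 12 h replicate 1 (edgeR adjusted p = 0.0743) and without 12 h replicate 2 (edgeR adjusted p = 0.120), the latter being the highest over all alternatives and 0.000494 the lowest.

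The LATS kinases are the enzymes that phosphorylate YAP and TAZ. Lats1 (chr10:7401007-7436256, plus strand, Entrez 16798) had 115 and 107 CPM in vehicle, 124 and 92.8 CPM at 2 h, and 132 and 121 CPM at 12 h. Both 12 h libraries were above both vehicle libraries, the 2 h libraries spanned the vehicle range, and no difference passed the test (log2FC -0.04 ± 0.15 SE at 2 h, edgeR adjusted p = 0.893, and 0.19 ± 0.15 SE at 12 h, edgeR adjusted p = 0.365). From 2 h to 12 h the log2FC of Lats1 was 0.22 ± 0.15 SE (edgeR adjusted p = 0.297), and it was called higher without 2 h replicate 1 (log2FC 0.45, edgeR adjusted p = 0.0325, with up to 0.888 over all alternatives). Lats2, whose gene is also a YAP/TAZ target, lies at chr14:58260914-58377225 on the minus strand (Entrez 50523) and had 47.2 and 46.7 CPM in vehicle, 67.5 and 52.2 CPM at 2 h, and 79.9 and 70.2 CPM at 12 h. The groups of Lats2 did not overlap in any comparison, although 2 h replicate 1 was close to 12 h replicate 2.

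Lats2 rose 1.60-fold at 12 h (log2FC 0.68 ± 0.15 SE, edgeR adjusted p = 0.0105). Its difference at 2 h did not pass without a block (log2FC 0.35 ± 0.15 SE, edgeR adjusted p = 0.171) and passed with the replicate number as a block (edgeR adjusted p = 0.0483, with 0.0454 to 0.511 over all alternatives). The same held from 2 h to 12 h (log2FC 0.33 ± 0.15 SE, edgeR adjusted p = 0.132, and 0.0324 with the block, with 0.0243 to 0.478 over all alternatives). Without vehicle replicate 1, vehicle replicate 2 or 12 h replicate 1 the edgeR adjusted p at 12 h was 0.0541, 0.0548 and 0.0895, over a range of all alternatives that begins at 0.000745. The gene model used for its length shares exon bases on the same strand with Xpo4. Whether the models on which the authors counted do so was not tested, and the level of Lats2 per length is uncertain for this reason.

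Yap1, which encodes YAP, lies at chr9:7931999-8004596 on the minus strand (Entrez 22601). Its CPM values were 161 and 154 in vehicle, 209 and 169 at 2 h, and 221 and 207 at 12 h. The treated libraries were all above those of vehicle, and those of 2 h and 12 h overlapped. The difference was not past the test at 2 h (log2FC 0.27 ± 0.13 SE, edgeR adjusted p = 0.218), where the log2FC was 0.09 without 2 h replicate 1 and 0.41 without 2 h replicate 2, while at 12 h Yap1 was 1.36-fold higher (log2FC 0.44 ± 0.13 SE, edgeR adjusted p = 0.0290). The call at 12 h was lost with total counts (edgeR adjusted p = 0.0665) and without vehicle replicate 1, vehicle replicate 2, 12 h replicate 1 or 12 h replicate 2 (edgeR adjusted p from 0.0982 to 0.173, with 0.00404 the lowest over all alternatives).

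Wwtr1, which encodes TAZ, lies at chr3:57259571-57379832 on the minus strand (Entrez 97064). It was measured at 142.1 and 139 CPM in vehicle, 173 and 142.1 CPM at 2 h, and 198 and 175 CPM at 12 h. The lower 2 h library fell within the vehicle range, and both 12 h libraries were above all others. At 2 h the log2FC was 0.16 ± 0.13 SE (edgeR adjusted p = 0.445), and at 12 h Wwtr1 was 1.33-fold higher (log2FC 0.41 ± 0.13 SE, edgeR adjusted p = 0.0416). This call too was lost with total counts (edgeR adjusted p = 0.104) and without vehicle replicate 1, vehicle replicate 2, 12 h replicate 1 or 12 h replicate 2 (edgeR adjusted p from 0.0963 to 0.245, with 0.00655 the lowest over all alternatives). In Yap1, Wwtr1, Lats1, Lats2 and Ctgf, 2 h replicate 2 was below 2 h replicate 1, by log2 differences of -0.28 to -0.53, where the median absolute gap over all genes tested at 2 h was 0.22. The part of this gap in the 2 h values was not tested.

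Vgll3, a cofactor that binds TEAD factors through a Vestigial domain at the surface that YAP and TAZ use, lies at chr16:65815878-65863302 on the plus strand (Entrez 73569). It was the lowest of the 10 genes, with 36 and 45 counts in vehicle, 52 and 45 at 2 h, and 117 and 106 at 12 h. These are 2.12 and 2.87 CPM, 2.63 and 2.27 CPM, and 5.10 and 5.45 CPM. The vehicle and 2 h libraries overlapped, and both 12 h libraries were above them. Vgll3 was 2.11-fold higher at 12 h than in vehicle (log2FC 1.08 ± 0.25 SE, edgeR adjusted p = 0.0139) and 2.15-fold higher than at 2 h (log2FC 1.10 ± 0.25 SE, edgeR adjusted p = 0.0159), while at 2 h its log2FC was -0.02 ± 0.26 SE (edgeR adjusted p = 0.966). The call against vehicle was lost without vehicle replicate 1 (edgeR adjusted p = 0.0901), 12 h replicate 1 (edgeR adjusted p = 0.0653) or 12 h replicate 2 (edgeR adjusted p = 0.0814), with 0.00366 the lowest over all alternatives. The call against 2 h was lost without 2 h replicate 2, 12 h replicate 1 or 12 h replicate 2 (edgeR adjusted p from 0.0558 to 0.0948, with 0.00360 the lowest over all alternatives).

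**Figure D2:**
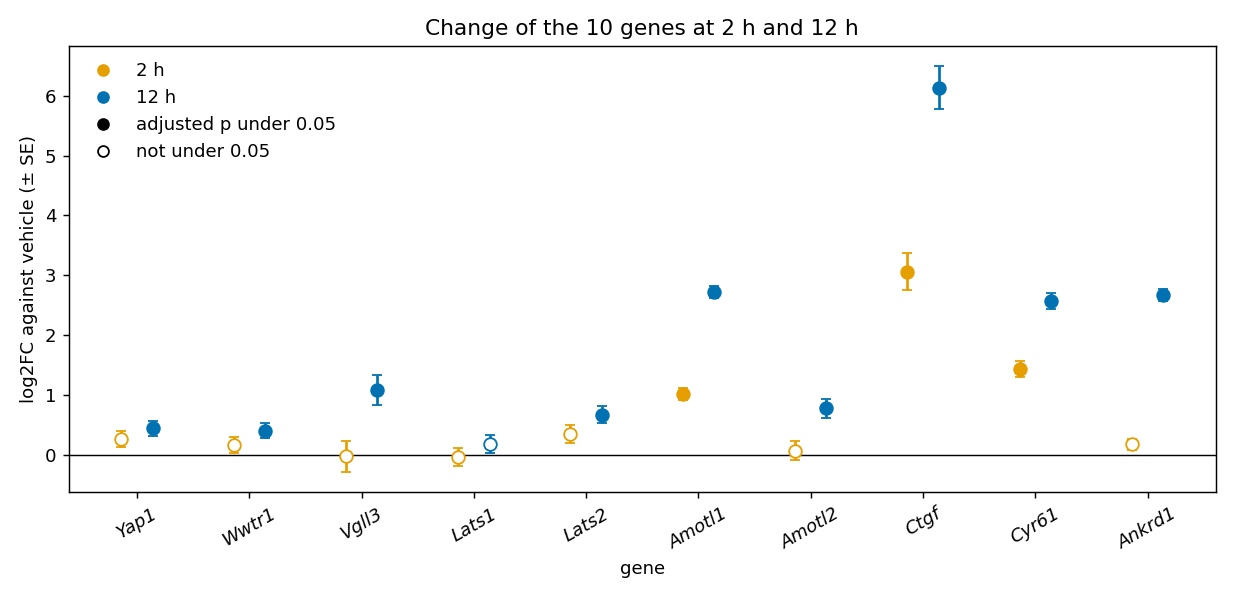
log2FC against vehicle with its SE for each of the 10 genes at 2 h and 12 h. Filled points have an edgeR adjusted p under 0.05. At 2 h Ctgf, Cyr61 and Amotl1 are filled, and at 12 h all but Lats1 are, with Ctgf highest at 6.13.

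Levels can be compared between genes only per length of exon, here as CPM per kilobase of exon (RPKM). In vehicle the order of the group means began with Ankrd1 at 66.4 RPKM, Amotl2 at 31.9, Wwtr1 at 29.4 and Cyr61 at 22.0. Yap1 followed with 17.0 RPKM, Lats1 with 15.3, Ctgf with 8.38, Lats2 with 6.43, Amotl1 with 2.44 and Vgll3 with 0.75. Amotl2 and Wwtr1 differed by less than the SD of Amotl2 (6.23 RPKM), and Ctgf and Lats2 by less than the SD of Ctgf (3.49 RPKM). At 12 h Ctgf led with 590.2 RPKM, before Ankrd1 with 423, Cyr61 with 130.3 and Amotl2 with 54.7. Wwtr1 came next with 39.0 RPKM, then Yap1 with 23.1, Lats1 with 17.4, Amotl1 with 16.1, Lats2 with 10.3 and Vgll3 with 1.59. Among the 9960 tested genes with a length, Ctgf went from rank 5689 in vehicle to 791 at 2 h and 37 at 12 h. Ankrd1 ranked 715, 720 and 61, Cyr61 ranked 2695, 971 and 293, and Amotl1 ranked 8433, 7088 and 3745. Wwtr1 went from rank 1985 to 1518 and Yap1 from 3478 to 2716 between vehicle and 12 h.

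The balance between related genes was read as the log2 ratio of their counts per exon base within a library, which does not depend on the scaling between libraries. These ratios were not tested and are a description. For TAZ against YAP the ratio stayed between 0.68 and 0.81 in all 6 libraries, so Wwtr1 counts per base were 1.60 to 1.75 times those of Yap1 in every condition. Counts without length put Wwtr1 below Yap1 in each group, so the direction of this ratio rests on the gene lengths, and its steadiness does not. Lats2 against Lats1 went from -1.25 ± 0.06 in vehicle to -0.85 ± 0.04 at 2 h and -0.76 ± 0.04 at 12 h (mean ± SD, n = 2), and the vehicle libraries lay below all treated ones.

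The angiomotin pair shifted more. Amotl2 counts per base were 14.9 and 11.3 times those of Amotl1 in the vehicle libraries, 7.70 and 6.02 times at 2 h, and 3.29 and 3.51 times at 12 h. The CCN pair changed order, with Cyr61 at 2.22 and 3.35 times Ctgf in vehicle, 0.74 and 1.00 times at 2 h, and 0.19 and 0.25 times at 12 h. In both pairs the 3 groups did not overlap, and the gene that was lower in vehicle was the one that rose more.

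**Figure D3:**
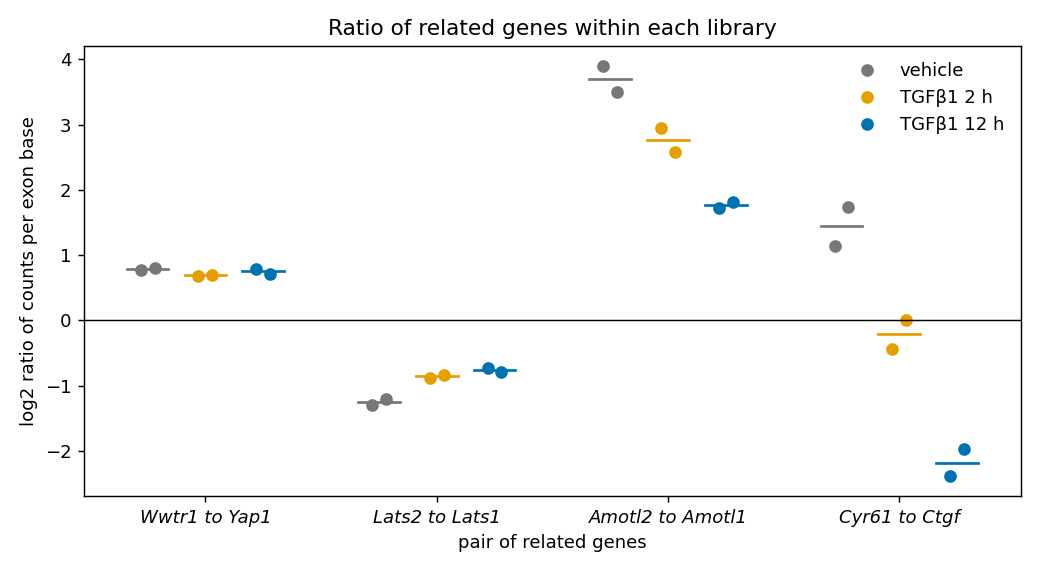
log2 ratio of counts per exon base for 4 pairs of related genes, with a point per library and a bar at each group mean. Wwtr1 to Yap1 stays between 0.68 and 0.81, while Cyr61 to Ctgf falls from 1.45 to -2.18 between the vehicle and 12 h means.

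The rest of the pathway was read from lists of other genes. Of 22 Hippo core and upstream genes, 20 were tested. At 2 h, 5 were higher and 1 was lower than in vehicle, with a median log2FC of 0.01, against 9.91% and 5.25% of all genes. Higher were Wwc1 (0.41) and Wwc2 (1.11), WW-domain scaffolds that help to activate LATS, Map4k4 (0.68), a kinase upstream of LATS, Ajuba (0.81), a LIM protein that restrains LATS, and Rassf1 (0.58), a scaffold that binds the MST kinases. Frmd6, a FERM-domain scaffold, fell by 0.87 on the log2 scale. At 12 h, 8 were higher and 1 was lower, with a median of 0.28, against 21.8% and 21.5% of all genes. Higher were Frmd6 (2.15), Wwc2 (1.89), Ajuba (1.56), Wtip (1.35), a relative of Ajuba, Map4k4 (0.99), Rassf1 (0.80), Stk4 (0.44), which encodes MST1, and Ptpn14 (0.34), a phosphatase that binds YAP. Amot, the founding angiomotin, fell by 0.89, in contrast to Amotl1 and Amotl2.

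Frmd6 moved in opposite directions at the 2 times. It had 5.77 and 4.84 CPM in vehicle, 3.09 and 2.73 CPM at 2 h, and 24.3 and 22.9 CPM at 12 h. The 3 groups did not overlap, and the rise from 2 h to 12 h was the steepest of this list (log2FC 3.02 ± 0.18 SE, edgeR adjusted p = 0.000218). Its fall at 2 h had an edgeR adjusted p of 0.0258, which left the threshold with limma-voom (0.0523), with only the 2 groups compared (0.0999) and without either vehicle library, 2 h replicate 2 or either 12 h library, where it was at most 0.155. The members of this list that were called include both genes that promote LATS activity and genes that restrain it. With only the 2 groups compared or with total counts 3 were higher at 2 h. With 1 library left out the number was 2 to 4, since Wwc1 lost its call without any 1 of the 6 libraries (edgeR adjusted p from 0.0552 to 0.196), Rassf1 without any but 2 h replicate 1 (edgeR adjusted p from 0.0576 to 0.204) and Map4k4 without vehicle replicate 1 (edgeR adjusted p = 0.0691). At 12 h Stk4 was not called without vehicle replicate 1 or either 12 h library (edgeR adjusted p from 0.0657 to 0.0921), Ptpn14 without any of the vehicle or 12 h libraries (edgeR adjusted p from 0.113 to 0.137), and Amot without vehicle replicate 1 or 12 h replicate 2 (edgeR adjusted p = 0.0949 and 0.107). Total counts also ended the calls of Stk4 (log2FC 0.31, edgeR adjusted p = 0.0527) and Ptpn14 (log2FC 0.21, edgeR adjusted p = 0.133) at 12 h. With the replicate block Stk3, which encodes MST2, was called lower at 2 h (log2FC -0.46, edgeR adjusted p = 0.0492) and Mob1b, an adaptor of LATS, lower at 12 h (log2FC -0.57, edgeR adjusted p = 0.00599), which made 2 lower at each time. The block also called genes higher, at 2 h Ptpn14 (log2FC 0.28, edgeR adjusted p = 0.0443) and at 12 h Stk3 (log2FC 0.51, edgeR adjusted p = 0.0160) and Mob1a, a relative of Mob1b (log2FC 0.29, edgeR adjusted p = 0.0380). Stk3, Mob1a and Mob1b were named after their values were seen.

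The TEAD factors are the DNA-binding partners of YAP and TAZ. Of 7 TEAD and Vestigial-like genes 5 were tested, and Vgll1 and Vgll2 had no counts in any library. Tead2 had 37.2 and 44.9 CPM in vehicle, 58.9 and 69.5 CPM at 2 h, and 163 and 170.1 CPM at 12 h. Its groups did not overlap, and it rose at both times (log2FC 0.64 ± 0.14 SE, edgeR adjusted p = 0.0247, and 2.02 ± 0.14 SE, edgeR adjusted p = 0.000121). The call at 2 h was lost with total counts, with only the 2 groups compared, and without any library but 2 h replicate 1, up to an edgeR adjusted p of 0.153. Tead3 was higher at 12 h (log2FC 0.74), a call lost without vehicle replicate 2 or either 12 h library (edgeR adjusted p from 0.0516 to 0.0616). Tead1 had log2FC values of 0.36 and 0.58 that did not pass the test, the latter at an edgeR adjusted p of 0.0955, or 0.0447 with the replicate block and from 0.0318 to 0.474 over all alternatives, and Tead4 had 0.15 and 0.13. Vgll4, which competes with YAP for TEAD, was higher at 2 h (1.41) and 12 h (1.09). With 1 library left out the log2FC of Tead1 ran from 0.04 to 0.60 at 2 h (without 2 h replicate 2 and without 2 h replicate 1) and from 0.28 to 0.82 at 12 h (without 12 h replicate 1 and without 12 h replicate 2). The median log2FC of these 5 genes was 0.36 at 2 h, which is the value of Tead1, and 0.74 at 12 h.

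Of 17 other YAP/TAZ target genes, 16 were tested. At 2 h, 6 were higher and 0 were lower, with a median log2FC of 0.29, against 9.91% and 5.25% of all genes. These were Gadd45a (3.10), a stress and growth arrest gene, Foxf2 (2.43), a forkhead factor, Nt5e (2.15), which encodes the ectonucleotidase CD73, the kinase gene Nuak2 (1.86), Dock5 (1.06), which encodes a Rac exchange factor, and F3 (0.71), which encodes tissue factor. At 12 h, 11 were higher and 1 was lower, with a median of 0.88, against 21.8% and 21.5% of all genes. All 6 genes called at 2 h were higher at 12 h too, with Nt5e (5.46), Gadd45a (4.45), Nuak2 (2.83), Foxf2 (2.48), F3 (1.24) and Dock5 (0.94). They were joined by Igfbp3 (2.59), which encodes a binding protein of insulin-like growth factors, Ccdc80 (1.26), Asap1 (0.82), Crim1 (0.63) and Ptpn14 (0.34), which is also in the Hippo list. With the replicate block Asap1 (edgeR adjusted p = 0.0316) and Ptpn14 (edgeR adjusted p = 0.0443) were called higher at 2 h as well. The receptor tyrosine kinase gene Axl fell by 0.64, from 952 and 774 CPM in vehicle to 546 and 564 CPM at 12 h. With the replicate block Tgfb2, chosen after its values were seen, was lower as well (log2FC -0.47, edgeR adjusted p = 0.0427). F3 lost its call at 2 h without vehicle replicate 1 (edgeR adjusted p = 0.143), without either 12 h library and with only the 2 groups compared (edgeR adjusted p = 0.0792), and Crim1 lost its call at 12 h without any of the vehicle or 12 h libraries, up to an edgeR adjusted p of 0.207, and with total counts (log2FC 0.50, edgeR adjusted p = 0.0690). The call of Axl was lost without vehicle replicate 1 or either 12 h library (edgeR adjusted p from 0.103 to 0.116), and that of Ccdc80 without 12 h replicate 2 (edgeR adjusted p = 0.0627).

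Like Ankrd1, the targets Igfbp3, Ccdc80, Asap1, Crim1 and Ptpn14 were past the test without a block at 12 h and not at 2 h. The same held for Yap1, Wwtr1, Vgll3, Lats2 and Amotl2. Igfbp3 lay between 16.0 and 19.1 CPM in the vehicle and 2 h libraries and at 107 and 104 CPM at 12 h. Nt5e followed Ctgf in rising at both times, with 7.07 and 6.06 CPM in vehicle, 30.02 and 28.3 CPM at 2 h, and 268 and 312 CPM at 12 h. Foxf2 and Dock5 were called against vehicle at both times, and their differences from 2 h to 12 h did not pass the test (log2FC 0.05 and -0.12, edgeR adjusted p = 0.779 and 0.381). Of 4 other genes of the CCN family 2 were tested. Wisp1 (Ccn4) rose, with 39.6 and 49.4 CPM in vehicle, 337 and 279 CPM at 2 h, and 601 and 554 CPM at 12 h (log2FC 2.79 ± 0.16 SE and 3.70 ± 0.17 SE, edgeR adjusted p = 0.000262 and 3.69e-05). Wisp2 (Ccn5) did not pass at either time (log2FC 0.43 and -0.62), and at 12 h it was called lower with the replicate block (edgeR adjusted p = 0.0219, against 0.251 without it).

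**Figure D4:**
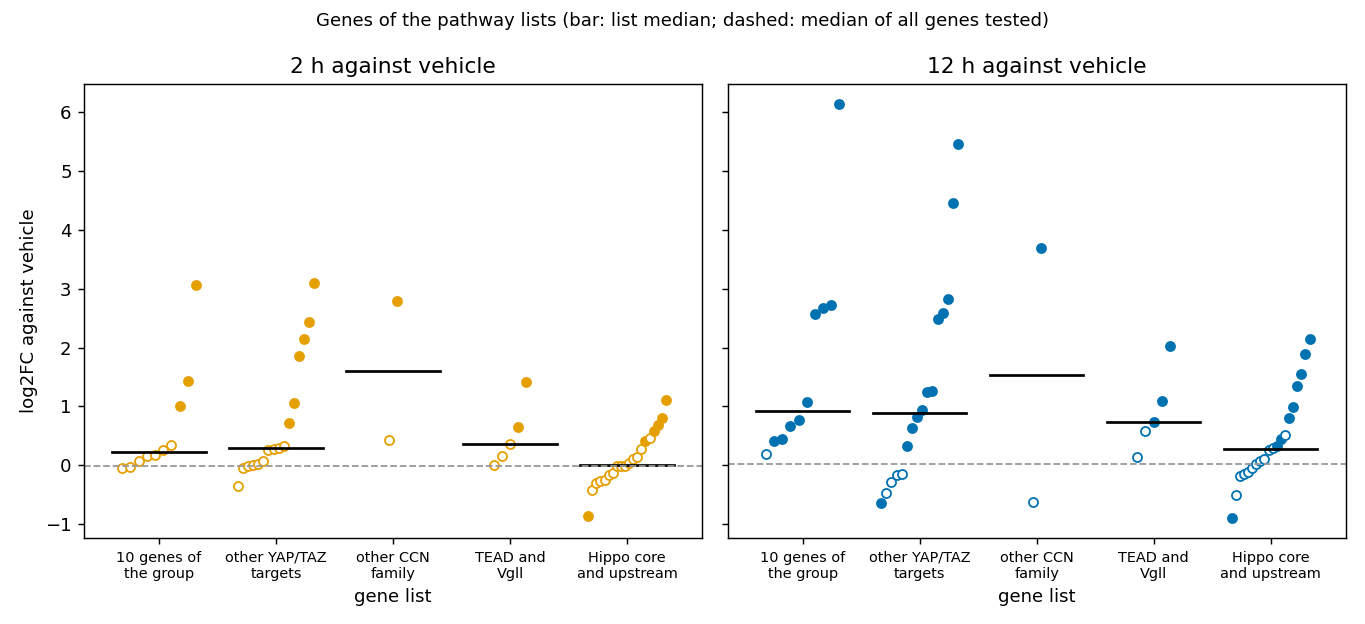
log2FC against vehicle of the 10 genes and of the tested genes of 4 further lists at 2 h (left) and 12 h (right), with black bars at list medians and a dashed line at the median of all genes tested. Filled points have an edgeR adjusted p under 0.05. At 12 h the medians are 0.93 for the 10 genes, 0.88 for other targets and 0.28 for Hippo core and upstream genes.

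The tested genes with the pattern most like that of the 3 targets were found by the Euclidean distance of log2 CPM, each gene set to its vehicle mean, over the 6 libraries. Nearest to Ctgf were Timp3, an inhibitor of metalloproteinases (distance 1.04, log2FC 4.05 at 2 h and 6.18 at 12 h), Lgr6, an R-spondin receptor gene (1.38, with 4.35 and 7.17), and Ctla2a (1.81, with 2.78 and 5.34). Cyr61 had closer neighbours, namely 4930486L24Rik (0.284), Fbxo32, a ubiquitin ligase gene (0.340), and Acsbg1, an acyl-CoA synthetase gene (0.404), whose log2FC values at 12 h lay between 2.59 and 2.65. For Ankrd1 they were Nckap5 (0.162), Igfbp3 (0.348) and Slc37a2 (0.474), with log2FC values of 0.01 to 0.50 at 2 h and 2.59 to 3.25 at 12 h. The distance compares changes from vehicle and not levels.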

How the data were processed

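Stranded total RNA-seq of 6 NMuMG libraries in 3 groups of 2 was analysed. As the methods describe it, the authors aligned filtered reads to mm9 with subjunc of Rsubread, kept those mapped uniquely, ran the duplicate removal of SAMtools 0.1.19 and summed the reads over exons of UCSC genes with featureCounts, by strand. What the authors deposited is a table of raw counts, not normalized, for 21240 genes. At 12 h Ctgf held 14.6 and 10.6 counts per exon base, more than the start positions on 1 strand, so reads with the same start were still counted.

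Counts were tested in R 4.3.3 with edgeR 4.0.16 (quasi-likelihood, TMM, 1 fit of the 3 groups, two-sided). The filter kept 11080 genes that reached 2 CPM in 2 or more libraries. Adjustment was by Benjamini-Hochberg, separately for each comparison, and a call is an adjusted p under 0.05. The SE is the absolute log2FC divided by the square root of F. The script was tested on simulated data. Total counts were 14705886 to 23786993 per library, and TMM factors were 0.961 to 1.07. All CPM values given here use these factors, while the filter at 2 CPM used total counts without them. Exon lengths came from GENCODE on NCBIM37 for 18790 genes, while the authors counted on UCSC models, and promoters from RefSeq on GRCm38.p6, matched by Entrez identifier.

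The 10 genes, the lists and the tests were chosen with earlier results of these data known. Genes named from the lists are those called against vehicle at either time and the TEAD factors, and the 3 nearest genes are named for each of Ctgf, Cyr61 and Ankrd1. Any other gene was chosen after its values were seen. Deviations from the group means of libraries with equal replicate numbers correlated across genes, at 0.71 (vehicle and 2 h), 0.26 (vehicle and 12 h) and 0.39 (2 h and 12 h). The labels do not state what a number shares, and the pairing was taken from these correlations.

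The alternatives were limma-voom (limma 3.58.1), DESeq2 1.42.0, edgeR with DESeq2 size factors, scaling by total counts, a stricter filter of 10 counts in each library, no filter, the replicate block, a fit of only the 2 groups compared, a larger prior count (2), the omission of each library, and ratios without length. Figures were drawn with matplotlib 3.10.9 in Python 3.11.15.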

Additional observations from a re-analysis of the deposited data

Results flagged for a closer look

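In 6 of the 10 genes the change at 12 h differed from that at 2 h by the edgeR test of 12 h against 2 h, which is the test of this difference, since both changes are taken from the same vehicle libraries. By that test 15.2% of all genes were higher and 18.9% lower. It does not separate longer exposure to TGFβ1 from longer time without serum. The calls of Vgll3 and Amotl2 did not hold in every fit with 1 library left out. The log2 difference of 12 h minus 2 h was 3.07 for Ctgf, 2.50 for Ankrd1, 1.71 for Amotl1, 1.13 for Cyr61, 1.10 for Vgll3 and 0.71 for Amotl2. Both 12 h libraries lay above both 2 h libraries in each of the 6, and also in Wwtr1 and Lats2, which were not called. Such a separation was not counted over all genes. Groups of 2 libraries are too small for a search for outlying samples.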

How the results depend on the processing

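Over 450 values of the 10 genes (a gene, a comparison and an alternative), 415 kept their direction and their side of the threshold, 22 lost a call, 5 gained one and 8 changed sign, all 8 at 2 h in genes not called there. The larger prior count alters the log2FC and not the p-value, so it could not change a call, and its values are all among the 415. Leaving out 1 library at a time turned the sign at 2 h of Wwtr1 (-0.0026 to 0.30), Vgll3 (-0.23 to 0.21), Lats1 (-0.28 to 0.16) and Amotl2 (-0.12 to 0.28), and of the list genes Amot (-0.082 to 0.32), Tead3 (-0.067 to 0.087), Tead4 (-0.050 to 0.31), Igfbp3 (-0.13 to 0.14), Crim1 (-0.34 to 0.25) and Ccdc80 (-0.19 to 0.28), and at 12 h of Wwc1 (-0.012 to 0.11) and Tead4 (-0.17 to 0.37). Total counts turned the sign of Amotl2 (-0.040), Tead3 (-0.10), Igfbp3 (-0.098) and Ccdc80 (-0.040) at 2 h and of Wwc1 (-0.065) at 12 h, and Tead3 was at -0.0031 with DESeq2 and -0.0028 with its size factors. With the replicate block all genes called higher and lower at 2 h numbered 1813 and 1409, and 2585 rose from 2 h to 12 h. The block gave 6 higher and 2 lower Hippo genes and 8 higher other targets at 2 h, and at 12 h 10 higher and 2 lower Hippo genes, 4 higher TEAD or Vgll genes, 11 higher and 2 lower other targets and 1 lower CCN gene, and beyond Lats2 it changed no call of the 10 genes. The share of all genes called at 12 h with the block is not given here, so these 12 h counts cannot be set against it. With only the 2 groups compared 635 were higher and 247 lower at 2 h, with 3 higher and 0 lower Hippo genes and 1 higher TEAD or Vgll gene, and at 12 h there were 2 lower other targets. Total counts gave 975 lower genes, 3 higher Hippo genes and 1 higher TEAD or Vgll gene at 2 h, and 2 lower Hippo genes and 2 lower other targets at 12 h, and limma-voom gave 0 lower Hippo genes at 2 h. Leaving out 1 library at a time gave 3 to 4, 5 to 9 and 4 to 8 of the 10 genes higher at 2 h, at 12 h and from 2 h to 12 h. It gave 493 to 1245 higher and 125 to 951 lower genes at 2 h, 1276 to 2705 and 1487 to 2779 at 12 h, and 587 to 1697 and 1000 to 2119 from 2 h to 12 h. For Hippo genes this was 2 to 4 higher and 0 to 2 lower at 2 h and 6 to 9 and 0 to 1 at 12 h, for TEAD and Vgll genes 1 to 2 higher at 2 h and 2 to 4 at 12 h, and for other targets 5 to 6 higher at 2 h and 8 to 11 higher and 0 to 2 lower at 12 h. A group left with 1 library was assumed to vary like the others. Without length the log2 ratio of Wwtr1 to Yap1 was -0.16, -0.26 and -0.20 in vehicle, 2 h and 12 h, that of Amotl2 to Amotl1 3.04, 2.11 and 1.11, and that of Cyr61 to Ctgf -2.47 at 12 h. The 36 to 117 counts of Vgll3 limit its precision. The causes of these changes were not tested.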
